A study of Homo sapiens with 6 samples.

Results

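Keratins are the intermediate filament proteins of epithelial cells, and they build a filament only as pairs of an acidic type I chain and a basic type II chain. Simple epithelia such as the lining of the endometrium make KRT8 with KRT18 and KRT19, often together with KRT7, while stratified epithelia make KRT5 with KRT14 or KRT15 in the basal layer and KRT10 in the layers above. KRT17 is a type I keratin of skin appendages and of wounded or stressed epithelium. A set of 10 such genes was followed here, named by symbol and chosen with earlier results of these data known: KRT7, KRT8, KRT18 and KRT19 as simple epithelial keratins, KRT5, KRT10, KRT15 and KRT17 as stratified epithelial keratins, and KRT23 and KRT80, placed in neither class. All 10 symbols were found once each among the 58735 genes of the deposited table.

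The libraries came from Ishikawa cells, a human endometrial adenocarcinoma line, cultured in DMEM with fetal bovine serum. One group of 3 received a negative control siRNA (siNC) and the other group of 3 received siRNA against TCF19 (siTCF19), both with a lipid reagent, and RNA was taken after 48 hours. How many siRNA sequences each group received was not stated in the sources at hand. The labels do not state whether libraries of 1 group are separate cultures. The p-values therefore measure the spread between these libraries, part or all of which may be technical.

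Library totals ran from 14680022 to 16244705 counts, and the 10 keratin genes held 0.121% to 0.140% of them. TCF19 itself had 2572, 2905 and 2756 counts in the siNC libraries against 675, 529 and 606 in the siTCF19 libraries, so each library matched its label. The cells carried epithelial markers in every library: the 6 markers EPCAM, CDH1, CLDN3, CLDN4, ESRP1 and MUC1 summed to 1057 to 1091 CPM (counts scaled by library size and TMM factors) in siNC and 1162 to 1194 CPM in siTCF19. Of the 7 endometrial markers, PAX8, SOX17, EMX2 and HOXA10 were tested, ESR1 and PGR held 9 and 14 counts over all 6 libraries and FOXA2 held 0. The 4 leukocyte markers summed to at most 1.54 CPM in any library, 8 stromal markers to 178 to 181 CPM in siNC and 127 to 136 CPM in siTCF19, mostly from COL1A2, 4 endothelial markers to 6.56 to 6.99 and 13.8 to 17.3 CPM, mostly from VWF, and 4 myoepithelial markers to 8.79 to 11.7 CPM over all libraries. DCN was at 0 counts throughout. The leukocyte marker PTPRC had 0, 2 and 16 counts in siNC and 0 in every siTCF19 library. The part of these marker genes in the keratin values was not tested.

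Among the keratins, the pair KRT8 and KRT18 fell together in siTCF19, while the other simple keratin of high level, KRT19, rose. KRT5, KRT10, KRT15 and KRT80 rose. Of 9 members tested, 6 were called higher at an edgeR adjusted p under 0.05, beside 20.7% of all 17299 genes tested, and 2 were called lower, beside 20.8% of all genes. KRT7 was not called and KRT23 was too low to be tested. In these bulk libraries, fewer cells with a keratin and less of its RNA per cell cannot be told apart. KRT17 passed the filter on low counts only through its siTCF19 libraries, so it had to differ in order to be tested. Without KRT17, 5 of 8 tested members were called higher and 2 lower. In 7 of the 10 members every siTCF19 library lay above every siNC library in CPM, beside 24.4% of all genes tested, and in 2 every siTCF19 library lay below, beside 24.9%. The 7 include KRT17, to which the limit above applies, and the 10 include KRT23, which was not tested.

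**Figure D1:**
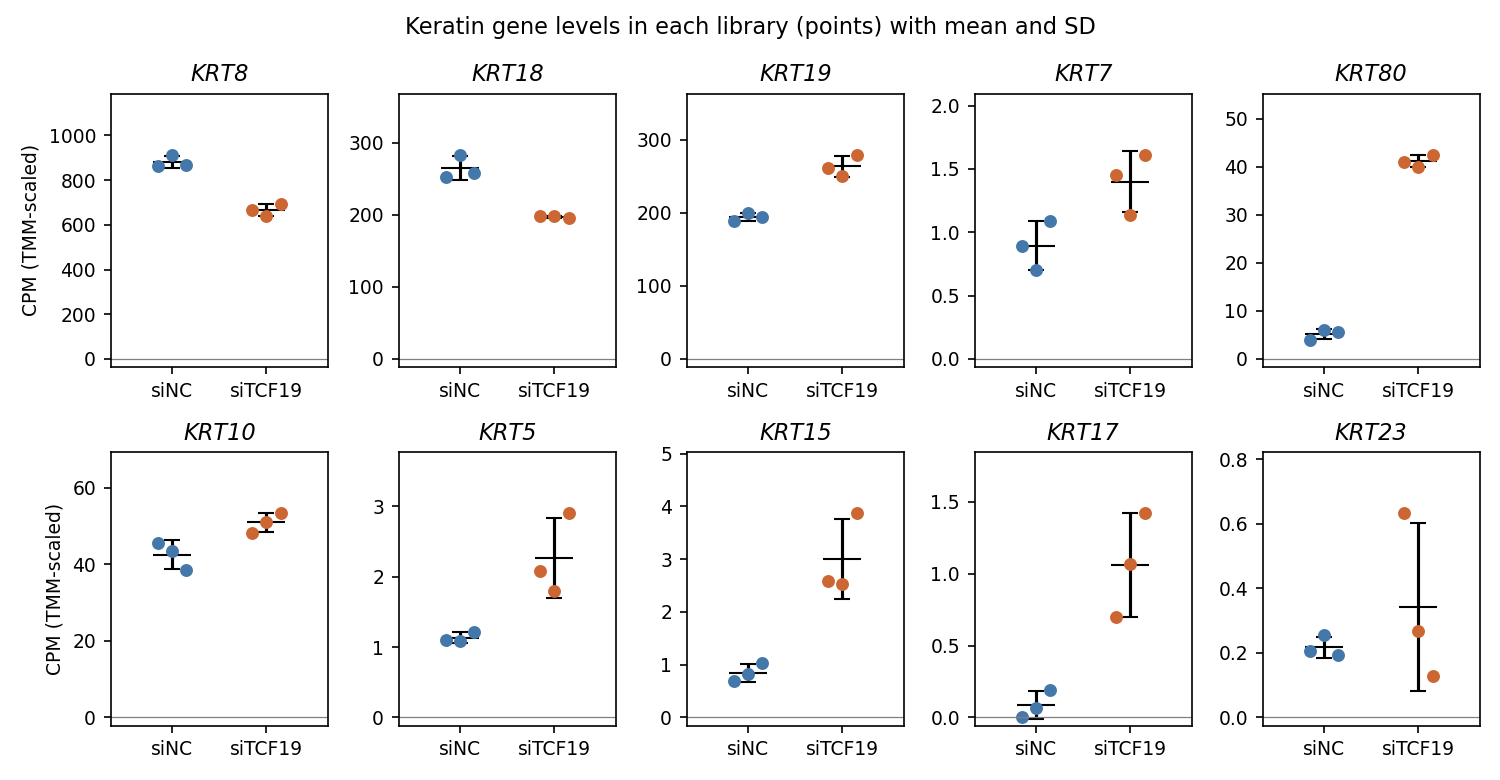
Level of each of the 10 keratin genes in CPM (linear axes, one scale per gene) for the 3 siNC and 3 siTCF19 libraries, with points for libraries, a horizontal bar for the mean and an error bar for the SD. KRT8 and KRT18 are lower in every siTCF19 library, KRT19, KRT10, KRT5, KRT15, KRT17, KRT7 and KRT80 are higher in every one, and KRT23 overlaps.

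KRT8 encodes the type II keratin of simple epithelia (ENSG00000170421, hg38 chromosome 12, 52897187 to 52949954, minus strand). It had 862, 913 and 868 CPM in siNC and 665, 639 and 694 CPM in siTCF19. The groups did not overlap, and KRT8 fell by 0.40 on the log2 scale (SE 0.04, adjusted p = 1.98e-10), which is 1.32-fold (95% interval 1.25 to 1.40). KRT18, its type I partner, lies beside it (ENSG00000111057, chromosome 12, 52948871 to 52952901, plus strand), the one type I member outside chromosome 17. KRT18 had 253, 283 and 259 CPM in siNC and 198, 198 and 195 CPM in siTCF19. It fell by 0.43 on the log2 scale (SE 0.05, adjusted p = 1.12e-09), or 1.34-fold (95% interval 1.26 to 1.44). The 2 falls had nearly the same size. KRT8 kept about the same FPKM per FPKM of KRT18, 1.60, 1.51 and 1.57 in siNC and 1.57, 1.51 and 1.66 in siTCF19. FPKM are depth-scaled fragments per kilobase of gene, as deposited, and their depth scaling does not match the raw library totals. With the lengths of the principal GENCODE transcripts, KRT8 per KRT18 was 2.69 in siNC and 2.73 in siTCF19. The next gene on the KRT18 side, the translation factor gene EIF4B, 53257 bases beyond KRT18, also fell (log2 fold change -0.63, adjusted p = 6.74e-16).

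The table's spans of KRT8 and KRT18 overlap by 1084 bases on opposite strands, and whether the counting used strand was not stated in the sources at hand. Both genes also have many processed copies. Of the 50-base stretches in the principal GENCODE transcript of KRT8, 39.7% also occur in transcripts of 37 other genes, and for KRT18 35.1% occur in 44 other genes. The 50 KRT8 pseudogenes in the table together held 140 to 155 counts per siNC library and 159 to 171 per siTCF19 library, where KRT8 itself held 9564 to 14348. The 67 KRT18 pseudogenes held 44 to 87 and 45 to 60 counts, where KRT18 held 2969 to 4453. The treatment of reads that match several places was not stated either, and the values of both genes are uncertain to that extent.

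KRT19, a type I keratin of simple epithelia and gland ducts, moved the other way (ENSG00000171345, chromosome 17, 41523617 to 41528308, minus strand). Its levels were 189, 200 and 194 CPM in siNC and 261, 251 and 280 CPM in siTCF19. KRT19 rose by 0.44 on the log2 scale (SE 0.05, adjusted p = 4.39e-10), or 1.36-fold (95% interval 1.27 to 1.45), and only 1.79% of its 50-base stretches occur in another gene, the pseudogene KRT19P1. The intervals of the log2 fold changes were 0.34 to 0.54 for KRT19 and -0.52 to -0.33 for KRT18, so the 2 simple type I keratins, KRT18 and KRT19, differed in sign. KRT7, the second type II keratin of simple epithelia, was close to the limit of detection, with 13, 11 and 17 counts in siNC and 23, 17 and 25 in siTCF19. Its log2 fold change of 0.64 was not called (adjusted p = 0.153, 95% interval -0.08 to 1.37), although the groups did not overlap. KRT7 overlaps KRT86, KRT87P and KRT7-AS, and 10.8% of its 50-base stretches occur in other genes, mostly the antisense gene.

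**Figure D2:**
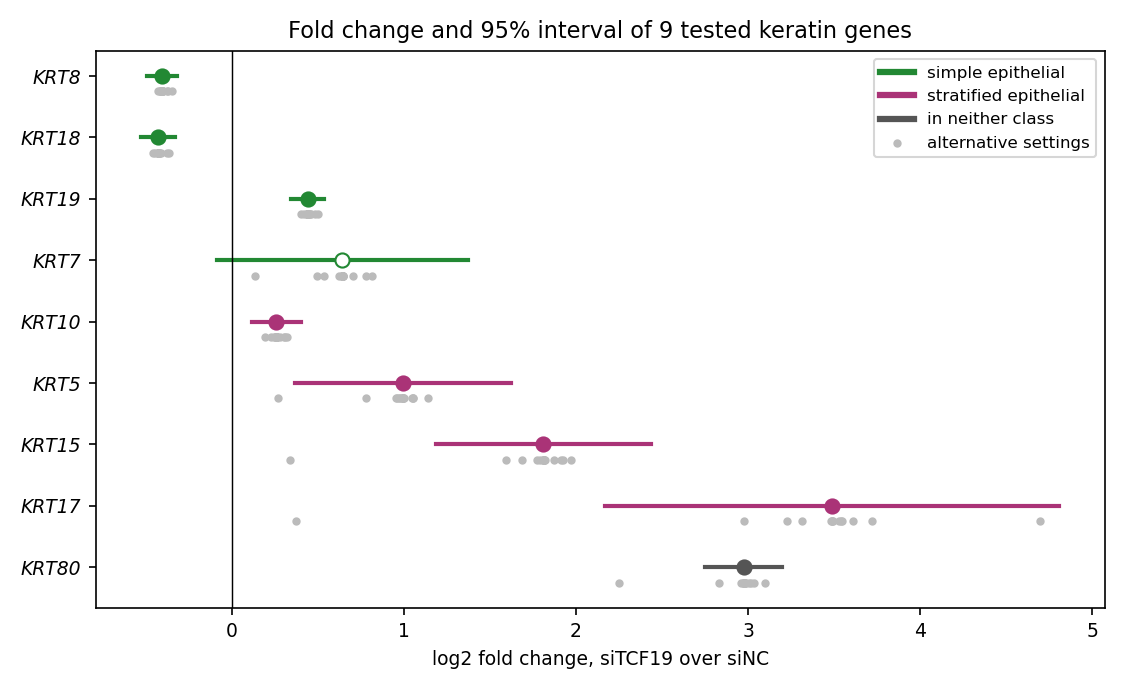
Log2 fold change of siTCF19 over siNC for the 9 tested keratin genes, with the point as the edgeR estimate (filled where called), the bar as its 95% interval and grey dots below as the value under each alternative setting. KRT8 and KRT18 lie below 0, KRT19 above, and the grey dots far left of KRT5, KRT15, KRT17 and KRT80 come from the log2(FPKM + 1) scale.

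The balance among the simple keratins shifted, and their sum was lower in the deposited FPKM. KRT8, KRT18, KRT19 and KRT7 summed to 283, 304 and 286 FPKM in siNC and 269, 259 and 279 FPKM in siTCF19, a log2 ratio of the means of -0.11. In these deposited FPKM every siTCF19 library lay below every siNC library. That separation depends on their depth scaling. With counts per gene length and raw library total instead, siTCF19 replicate 3 lies above siNC replicate 1 in this sum. With principal transcript lengths, chosen after the data were seen, the same sum went from 822 ± 31.6 to 703 ± 26.6 FPKM (SD, n = 3 per group), a log2 ratio of -0.23. In CPM the 4 genes summed to 1305 to 1397 in siNC and 1089 to 1171 in siTCF19. That sum is not per length, and KRT8 holds most of it. KRT18 made up 49.3%, 50.8% and 49.2% of KRT18 plus KRT19 in siNC and 35.5%, 36.4% and 33.7% in siTCF19. Type II keratins per type I keratins, summed over the members in FPKM, went from 0.699 ± 0.005 to 0.538 ± 0.007 (SD, n = 3 per group). That ratio depends on the gene lengths: with principal transcript lengths it was 1.45 in siNC and 1.10 in siTCF19. No test was made on these sums and shares, since the members were chosen with results known.

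**Figure D3:**
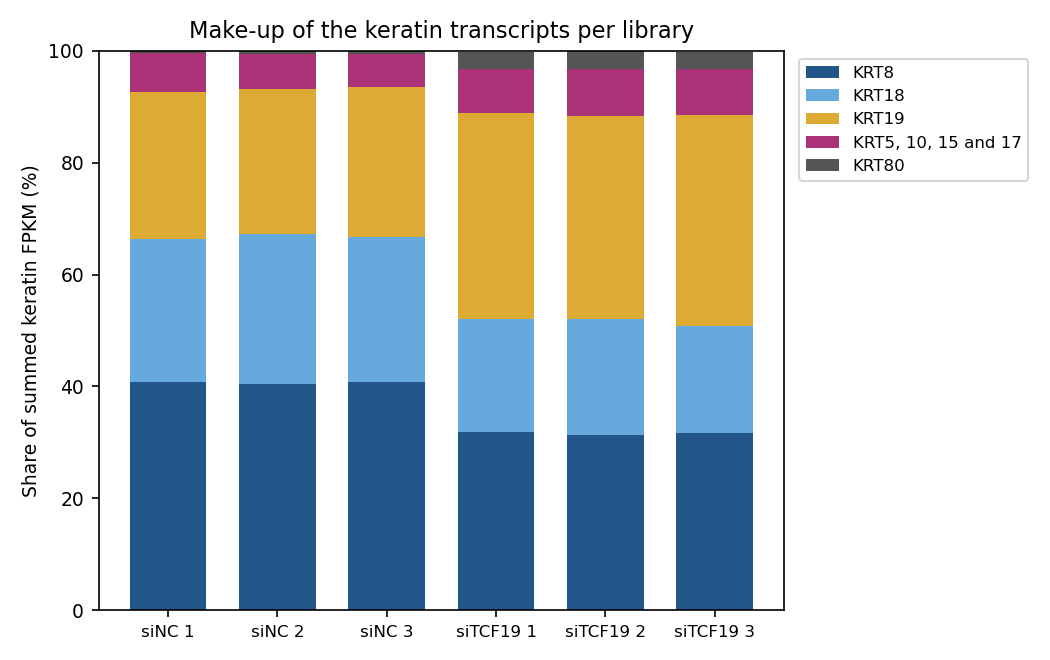
Share of the summed FPKM of the 10 keratin genes (percent) taken by KRT8, KRT18, KRT19, the 4 stratified keratins together and KRT80 in each of the 6 libraries; KRT7 and KRT23 are too low to be drawn. KRT19 takes 26.0% to 26.8% in siNC and 36.3% to 37.6% in siTCF19, and KRT8 takes 40.4% to 40.7% and 31.3% to 31.8%.

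Levels of different keratins were ranked per length only. In siNC the order of mean FPKM was KRT8 (127 ± 4.21), KRT19 (82.4 ± 2.26), KRT18 (81.6 ± 5.11), KRT10 (19.7 ± 1.77) and KRT80 (1.19 ± 0.235), followed by 5 genes under 0.3 FPKM (SD, n = 3). KRT19 and KRT18 did not differ beyond their spread there, nor did KRT5 (0.262 ± 0.016) and KRT7 (0.217 ± 0.047). In siTCF19 KRT19 stood first with 112 ± 6.33 FPKM, ahead of KRT8 with 95.9 ± 4.22, then KRT18 (60.7 ± 0.547), KRT10 (23.5 ± 1.12) and KRT80 (9.37 ± 0.312). KRT5 (0.414 to 0.670), KRT15 (0.354 to 0.542), KRT7 (0.274 to 0.390) and KRT17 (0.221 to 0.449) followed. Neighbours in that order overlapped, while KRT5 lay above KRT7 in every library. The first place of KRT19 depends on gene length, because the table gives KRT8 a length of 6881 bases against 1755 for its principal transcript. With principal transcript lengths KRT8 led in both groups, with 376 against 188 FPKM for KRT19 in siTCF19. Lower places depend on gene length too. With principal transcript lengths KRT18 (185) stood above KRT19 (139) and KRT7 (0.505) above KRT5 (0.444) in siNC. In siTCF19 KRT15 (1.24) then stood above KRT5 (0.887).

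KRT10, which pairs with KRT1 in the upper layers of the epidermis, was the one stratified keratin with a sizeable level (ENSG00000186395, chromosome 17, 40818117 to 40822595, minus strand). The set of RefSeq (GRCh38.p14) promoter windows at hand, 250 bases before and 50 after a start, held 3 of the 10 members, KRT5, KRT8 and KRT10. The KRT8 window belongs to an upstream start used by 1 of its 17 GENCODE transcripts and is not printed. Shown are the windows of the suprabasal KRT10 and the basal KRT5, both of which rose, at chr17:40822565-40822864 and chr12:52520345-52520644 on the minus strand. Capitals mark matches to the AP-1 motif TGANTCA, the TATA box TATAAA, the GC box GGGCGG and the CCAAT box CCAAT, searched on both strands.
KRT10: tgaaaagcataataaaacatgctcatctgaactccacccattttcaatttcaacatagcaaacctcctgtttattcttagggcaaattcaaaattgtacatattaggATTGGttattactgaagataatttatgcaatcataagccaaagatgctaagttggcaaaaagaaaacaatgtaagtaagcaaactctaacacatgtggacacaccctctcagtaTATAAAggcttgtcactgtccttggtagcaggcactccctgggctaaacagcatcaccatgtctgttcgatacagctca
KRT5: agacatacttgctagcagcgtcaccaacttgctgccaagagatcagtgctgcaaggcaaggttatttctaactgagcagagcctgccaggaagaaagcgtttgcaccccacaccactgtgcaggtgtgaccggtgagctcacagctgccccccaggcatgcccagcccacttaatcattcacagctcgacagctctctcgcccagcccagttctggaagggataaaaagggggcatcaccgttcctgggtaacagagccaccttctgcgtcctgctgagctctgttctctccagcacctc
The KRT10 window holds a TATA box 29 bases before the start and a CCAAT box in reverse 143 bases before it, and the KRT5 window holds none of the 4 motifs. Of 35116 RefSeq promoter windows of this length, 11.5% hold the TATA box, 34.6% the CCAAT box, 45.0% the GC box and 7.71% the AP-1 motif. A match is a description of these letters only.

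KRT10 had 45.6, 43.6 and 38.4 CPM in siNC and 48.3, 51.2 and 53.3 CPM in siTCF19. It rose by 0.26 on the log2 scale (SE 0.07, adjusted p = 0.00271), or 1.20-fold (95% interval 1.08 to 1.32), the smallest change among the called members. Without siNC replicate 3, the library with 16 PTPRC counts and the lowest KRT10 level, the log2 fold change was 0.19 and KRT10 was not called (adjusted p = 0.0538). The table places TMEM99 on the opposite strand across 3490 bases of KRT10, and TMEM99 also rose (log2 fold change 0.52, adjusted p = 6e-07). The transcripts of the 2 genes share 0.434% of the 50-base stretches of KRT10, but without the strand setting the reads where they overlap cannot be told apart.

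The basal keratins KRT5 and KRT15 were rare transcripts that rose. KRT5 (ENSG00000186081, chromosome 12, 52514575 to 52520687) had 16, 17 and 19 counts in siNC and 33, 27 and 45 in siTCF19. Its log2 fold change was 0.99 (SE 0.31, adjusted p = 0.00861), a 1.99-fold rise with a 95% interval of 1.29 to 3.08. KRT5 stands near the threshold: the adjusted p was 0.0504 by DESeq2 and 0.0498 in the authors' deposited table, and without siTCF19 replicate 3 the edgeR adjusted p was 0.083 at a log2 fold change of 0.78. Its usual partner in the basal layer, KRT14, was at 0 counts in all 6 libraries, which allows up to 0.191 to 0.206 CPM in siNC and 0.190 to 0.200 CPM in siTCF19 by counting error alone.

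KRT15 (ENSG00000171346, chromosome 17, 41513743 to 41522529) had 10, 13 and 16 counts in siNC and 41, 38 and 60 in siTCF19, with no overlap. It rose by 1.81 on the log2 scale (SE 0.31, adjusted p = 5.58e-06), or 3.51-fold (95% interval 2.28 to 5.41). KRT15 starts 1088 bases from the end of KRT19, on the same strand, and both rose. KRT13, on its other side, held 1, 2 and 2 counts in siNC and 4, 1 and 6 in siTCF19 and was not tested.

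KRT17 (ENSG00000128422, chromosome 17, 41619441 to 41624842) was nearly absent from siNC, with 0, 1 and 3 counts, and had 11, 16 and 22 counts in siTCF19. The groups did not overlap, but KRT17 was tested only because of its siTCF19 level, so its values are a description. Its fitted log2 fold change was 3.49 (SE 0.65), and the 95% interval of the fold ran from 4.49 to 28.0, so its size is poorly known. Without siNC replicate 3 the log2 fold change was 4.70. Pseudogenes and other keratins share 17.4% of its 50-base stretches, and its neighbour KRT16 was at 0 counts in every library. With log2(FPKM + 1) values, a scale that shrinks changes of low genes, KRT5, KRT15 and KRT17 had values of 0.27, 0.34 and 0.38.

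The 4 stratified keratins together summed to 21.5, 20.6 and 18.2 FPKM in siNC and 23.5, 24.6 and 26.3 FPKM in siTCF19, a log2 ratio of 0.30. KRT10 alone held 97.9% ± 0.54 of that sum in siNC and 94.9% ± 1.04 in siTCF19 (SD, n = 3 per group). The sum is therefore close to the KRT10 value, and for KRT5 and KRT15 alone the log2 ratio was 1.31. Beside it stood the ratio of -0.11 for the simple keratins. Simple keratins held 92.6% to 93.6% of the keratin FPKM in siNC and 88.4% to 89.1% in siTCF19. With principal transcript lengths they held 97.2% to 97.5% and 94.9% to 95.2%. In the deposited FPKM the mean stratified share went from 6.43% to 8.18%. The mean share of KRT80, in neither class, went from 0.379% to 3.09%, the larger gain.

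KRT80, a type II keratin found in many epithelia at a late stage of differentiation, had the largest rise of a member with more than a few counts (ENSG00000167767, chromosome 12, 52168996 to 52192000, minus strand). It had 59, 95 and 86 counts in siNC and 648, 598 and 659 in siTCF19. That is 4.05, 6.05 and 5.52 CPM against 41.0, 39.9 and 42.5 CPM. KRT80 rose by 2.97 on the log2 scale (SE 0.11, adjusted p = 1.29e-24), or 7.86-fold (95% interval 6.74 to 9.17), and its share of the keratin FPKM went from 0.379% ± 0.066 to 3.09% ± 0.018 (SD, n = 3 per group). With principal transcript lengths that share went from 0.158% ± 0.027 to 1.43% ± 0.007. Only 0.420% of its 50-base stretches occur in other genes. The lincRNA gene LINC00592, on the opposite strand across the whole of KRT80, held at most 2 counts in any library.

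The 3' UTR of KRT80 was searched for the words TGGTCAA and GGTCAAA. Of the tested genes with a 3' UTR of at least 50 bases, 14.3% carry at least 1 in any protein-coding transcript. The median log2 fold change was -0.04 for these carriers, beside 0.00 for genes with neither word. KRT80 carries TGGTCAA at base 1921 of the 2402-base 3' UTR of its principal transcript, and the site is printed with the word in capitals. KRT23 carries the same word in another of its transcripts, and no site was found for its principal transcript. The part of this word in the KRT80 values was not tested.
KRT80 site: cagccacTGGTCAAtcaggct
By distance between log2 CPM profiles centred on their mean, the 5 of 10961 other protein-coding genes nearest to KRT80 over the 6 libraries were PHLDA3 (distance 0.39), IGFBP7 (0.42), THBS1 (0.80), NEBL (0.88) and CDKN1A (0.94). All of these were low in the 3 siNC libraries and high in the 3 siTCF19 libraries, which is what the measure selects. PHLDA3 had 2.97 ± 0.557 and 20.9 ± 3.28 CPM, and IGFBP7 had 1.60 ± 0.446 and 11.1 ± 1.16 CPM (SD, n = 3 per group).

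KRT23, a type I keratin described in gut and pancreas epithelium, had 3, 4 and 3 counts in siNC and 10, 4 and 2 in siTCF19. The groups overlapped, and with no filter its log2 fold change was 0.64 (adjusted p = 0.634), so no difference was detectable at this depth. Of the 45 other keratin genes in the table, 25 had 0 counts in every library and none reached a mean of 1 CPM. KRT86, a hair keratin whose span overlaps KRT7, was the one tested (9, 5 and 12 counts in siNC, 11, 17 and 17 in siTCF19) and was not called (adjusted p = 0.164).

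Genes that work with keratins moved in both directions. Filament partners, which anchor keratins at desmosomes and hemidesmosomes or bind and modify them, had 4 genes higher, 7 lower and 5 not called among 16 tested, beside 20.7% higher and 20.8% lower of all genes tested. Their median log2 fold change was 0.06, beside 0.00 over all genes. Desmoplakin (DSP), which ties keratins to desmosomes, fell from 344 ± 11.2 to 248 ± 9.66 CPM, and the plakophilin PKP3 fell from 247 ± 10.9 to 176 ± 13.3 CPM (SD, n = 3 per group). Epiplakin (EPPK1) fell by 0.37 on the log2 scale (adjusted p = 1.41e-06). Plectin (PLEC), the linker between keratins and hemidesmosomes, rose from 593 ± 21.6 to 744 ± 19.5 CPM, and plakoglobin (JUP) by 0.19 on the log2 scale (adjusted p = 0.000416). Of the tested other intermediate filament genes 0 of 10 rose and 5 fell, beside the same 20.7% and 20.8% of all genes, with a median log2 fold change of -0.47 beside 0.00. The lamin genes LMNA (-1.54) and LMNB2 (-0.77) fell, as did synemin (SYNM, -0.83) and the neurofilament gene NEFH (-0.67), while LMNB1 (-0.01) was not called. VIM, the mesenchymal filament gene, held 4, 2 and 12 counts in siNC and 0, 4 and 1 in siTCF19 and was not tested.

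Most of the squamous program that accompanies stratified keratins was absent or too low to test. Of 29 squamous differentiation genes, 13 had 0 counts in every library, 24 were too low to test, and of 5 tested 2 rose, 2 fell and 1 was not called, beside 20.7% higher and 20.8% lower of all genes. The transglutaminase genes TGM3 (log2 fold change 0.90) and TGM5 (0.89) rose, the desmosomal cadherin gene DSC3 fell (-0.45), and S100A9 fell from 12.3 ± 2.10 to 0.922 ± 0.453 CPM (SD, n = 3 per group). Involucrin (IVL) held 5 counts in all. Of 22 epithelial transcription factors tested, 8 rose, 6 fell and 8 were not called, beside 20.7% and 20.8% of all genes, with a median log2 fold change of 0.05 beside 0.00. TP63, the factor of basal epithelial cells, rose at a low level from 1.49 to 2.82 CPM (adjusted p = 0.00518), and the AP-1 gene FOSL2 rose from 8.76 to 20.8 CPM and ELF3 from 46.7 to 77.0 CPM. FOS fell from 16.9 to 5.99 CPM and SOX9 by 2.89 on the log2 scale. These lists were written with earlier results of these data known, so their counts are descriptions.

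**Figure D4:**
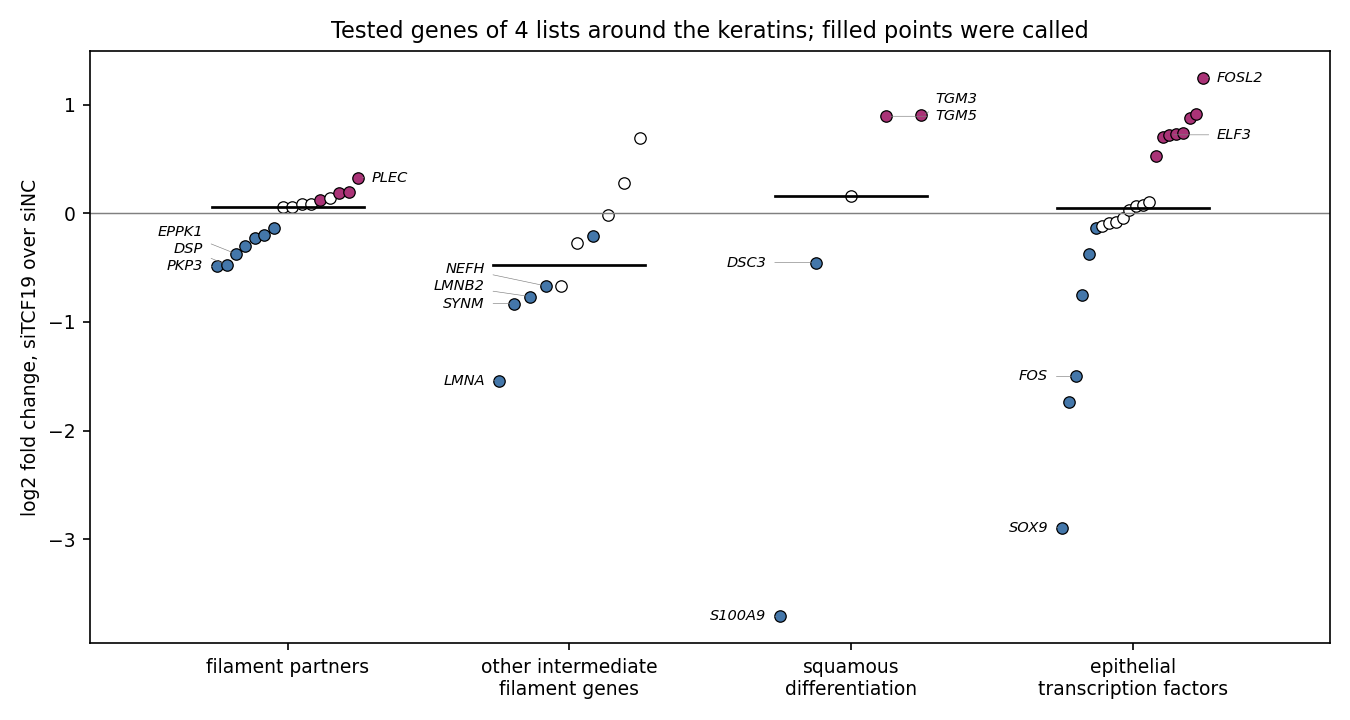
Log2 fold change of siTCF19 over siNC for the tested genes of 4 lists, one point per gene, filled red where called higher, filled blue where called lower and open where not called, with a line at the list's median. Filament partners spread on both sides of 0 (4 higher, 7 lower), and no other intermediate filament gene was called higher.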

How the data were processed

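The 6 libraries were grouped by title. The authors deposited 1 table with, per the file headers, read counts and FPKM per library. The submitters' processing notes name HISAT2 2.0.5, featureCounts 1.5.0-p3 and the build hg38. The authors' deposited table further lists their own comparison, as p-values with and without adjustment, log2 fold changes and the mean normalized signal of either group, made with a tool that no source at hand states. Its log2 fold changes for KRT8, KRT18 and KRT80 (-0.404, -0.426 and 2.98) equal the DESeq2 values found here. The deposited comparison and the DESeq2 alternative are therefore not separate evidence.

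All genes kept by filterByExpr (17299) were fitted with edgeR 4.0.16 (glmQLFit, glmQLFTest, R 4.3.3) on TMM-scaled counts with group as the only term, adjusted by Benjamini and Hochberg, and called at an adjusted p under 0.05. The step was tested on simulated data. CPM uses TMM-scaled sizes, and 3 counts equal 0.190 to 0.206 CPM. Such floors and intervals leave out PCR duplication, which a count table cannot show. No 2 libraries agreed within counting noise (chi-square per degree of freedom 2.29 to 3.78 within groups). Same-numbered libraries did not deviate together (r = -0.02 to 0.02). Alternatives were RLE, upper-quartile and library-size scaling, other filters, DESeq2 1.42.0, limma 3.58.1 (voom, and trend on log2(FPKM + 1)), a replicate block, a threshold of 0.01 and leaving out each library. The members, lists and tests were chosen with earlier results of these data known. Named genes are the members, up to 4 called genes per list by lowest p, neighbours and, among genes of at least 5 CPM, the 5 profiles nearest KRT80. EIF4B and TMEM99 are such neighbours. JUP, EPCAM, LMNB1, IVL, VIM, KRT13, KRT14, KRT16 and TP63 were named after their values were seen. Sequences came from RefSeq (GRCh38.p14) and GENCODE release 29.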

Additional observations from a re-analysis of the deposited data

How the results depend on the processing

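The 9 tested members kept their direction under every alternative that gave a value. KRT17 is among them and among those called higher, and it had to differ in order to be tested. The count of members called higher was 6 in the reported analysis, 5 with DESeq2 and with at least 1 CPM in at least 3 libraries, where KRT17 gave no value, 6 under the other scalings, filters and tools, and 5 to 6 with 1 library left out. The count called lower was 2 throughout. KRT5 was not called by DESeq2 (adjusted p = 0.0504) or without siTCF19 replicate 3 (0.083), with a range over its alternatives of 0.00531 to 0.083, and KRT10 was not called without siNC replicate 3 (0.0538, range 0.000248 to 0.0538). With the replicate number as a block, 6 were higher and 2 lower, and no call changed. The log2 ratio of the stratified sum was 0.30, and 0.68 with KRT80 added, 1.31 for KRT5 and KRT15 only and 0.24 to 0.36 with 1 library left out. The simple sum's was -0.11, -0.23 with principal transcript lengths (an alternative chosen after seeing the data, under which the stratified sum's was 0.36), and -0.14 to -0.08 with 1 library left out. Library-size-only scaling moved the median of all genes to 0.06 and the share of higher among all calls from 49.9% to 61.4%. Depth limits KRT5, KRT7, KRT15, KRT17 and KRT23, which had under 50 counts in most libraries.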

Other observations

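One KRT8 pseudogene moved against KRT8 itself. KRT8P12 had 40, 41 and 32 counts in siNC and 61, 56 and 68 in siTCF19, with a log2 fold change of 0.69 (edgeR adjusted p = 0.00892). The other KRT8 and KRT18 pseudogenes of highest count, KRT8P39 (-0.20), KRT8P33 (-0.39), KRT8P3 (-0.19) and KRT8P46 (-0.10), were not called. The authors' deposited table lists an adjusted p under 0.05 for 8 members, the 8 that were also called here, all with the same sign, and it rests on the same libraries. The 8 include KRT17, which passed the filter here only through its siTCF19 libraries.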
